A study of Mus musculus with 4 samples.

Results

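The genes described here are those of the unfolded protein response and of the chaperones of the endoplasmic reticulum (ER), in mouse cells labelled as peritoneal macrophages. They are 33 of the 22905 named genes with a usable probe on the array, chosen by name for their function. Earlier results of these data were known at that choice. The genes were found through the RefSeq accession of each probe. By role they were 15 chaperones and folding enzymes, 6 genes of ER-associated degradation and translocation, 4 stress sensors and their factors, and 8 genes of the ATF4 branch. They had 52 probes in all. For 18 of the genes there was 1 probe, and for the other 15 a second probe could be set beside the brightest one.

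The study measured 4 groups, with 1 array each: LysM-St18flox cells after 3 h with lipopolysaccharide (LPS, a bacterial outer membrane component that activates Toll-like receptor 4), LysM-St18flox cells at 0 h, wild-type cells after 3 h with LPS, and wild-type cells at 0 h. All mice had been given 4% thioglycollate, which irritates the peritoneum and recruits leukocytes, and the cavity was washed out after 3 days. The LPS dose, the strain, the sex and age of the mice, and how many mice gave the cells of an array were not stated. LysM, the lysozyme promoter of the allele name, often drives Cre recombinase in macrophages, and it is active in neutrophils too. St18 is a transcription factor gene of the zinc finger class. The sample titles say PEC, which commonly stands for peritoneal exudate cells, a mixture of cell types. With 1 array per group no difference has a replicate check, and no p-value was computed. In such mixed samples, fewer cells of a type and less RNA per cell cannot be told apart.

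Proteins that enter the ER are folded by chaperones and disulfide isomerases, and those that fail are drawn back to the cytosol and degraded. When unfolded proteins pile up, the sensors IRE1 (Ern1), ATF6 and PERK (Eif2ak3) act through the factors XBP1, cleaved ATF6 and ATF4: the XBP1 and ATF6 arms raise chaperones and degradation genes, and the ATF4 arm raises amino acid, redox and death genes. In mouse macrophages, Toll-like receptor signalling is known to engage the IRE1 and XBP1 arm without the full stress response, and to hold down CHOP, the product of Ddit3.

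Sites through which these factors act often lie close to the gene start, and 29 of the 33 genes had a promoter in the RefSeq table of build GRCm38.p6, as windows of 250 bases before to 50 bases after the start. Hyou1, Manf, Derl1 and Atf6 were not matched. The ER stress response element was written as CCAAT and CCACG 9 bases apart and searched on both strands. It lay in the windows of 8 of the 29 genes, which is 27.6% of them, against 0.137% of all 27025 genes with windows of the same length. These were the windows of Hspa5, Hsp90b1, Calr, Canx, Dnajc3, Creld2, Pdia6 and Syvn1, with 2 matches in Hsp90b1. Its second form, ATTGG and CCACG 1 base apart, lay in the windows of Dnajb11 and Herpud1, which is 6.9% of the 29 against 0.0444% of all those genes. The C/EBP-ATF element TGATGNAA, the kind of site ATF4 uses, lay in the windows of Herpud1, Trib3, Chac1 and Asns, which is 13.8% against 4.51%. TGACGTGG, the UPR element, lay in the windows of none of the 29 and of 0.714% of all genes. No match of one element overlapped a match of another. The 33 genes were chosen for their part in this response, so the shares describe the set and are no test of it.
Examples with the matched bases in capitals follow, each upstream of the gene start and read 5′ to 3′ in the direction of the gene, to show the matched bases in their surroundings. The first 5 carry the ER stress response element, with that of Creld2 on the opposite strand.
Hspa5 (chr2:34772005-34772063, plus strand): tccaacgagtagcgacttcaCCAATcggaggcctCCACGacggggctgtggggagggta
Canx (chr11:50325780-50325838, minus strand): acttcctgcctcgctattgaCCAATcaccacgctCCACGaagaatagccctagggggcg
Pdia6 (chr12:17266471-17266529, plus strand): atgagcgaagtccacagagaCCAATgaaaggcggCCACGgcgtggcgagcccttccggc
Dnajc3 (chr14:118937807-118937865, plus strand): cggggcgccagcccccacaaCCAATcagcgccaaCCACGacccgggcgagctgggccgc
Creld2 (chr15:88819500-88819558, plus strand): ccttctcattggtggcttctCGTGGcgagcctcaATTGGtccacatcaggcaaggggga
The next carries the second form of that element, and the last 2 carry the C/EBP-ATF element, which in Chac1 is on the opposite strand.
Herpud1 (chr8:94386357-94386407, plus strand): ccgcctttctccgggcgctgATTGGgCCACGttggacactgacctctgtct
Asns (chr6:7693210-7693252, minus strand): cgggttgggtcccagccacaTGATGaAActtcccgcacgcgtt
Chac1 (chr2:119351029-119351076, plus strand): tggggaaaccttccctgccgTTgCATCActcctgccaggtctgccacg

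**Figure D1:**
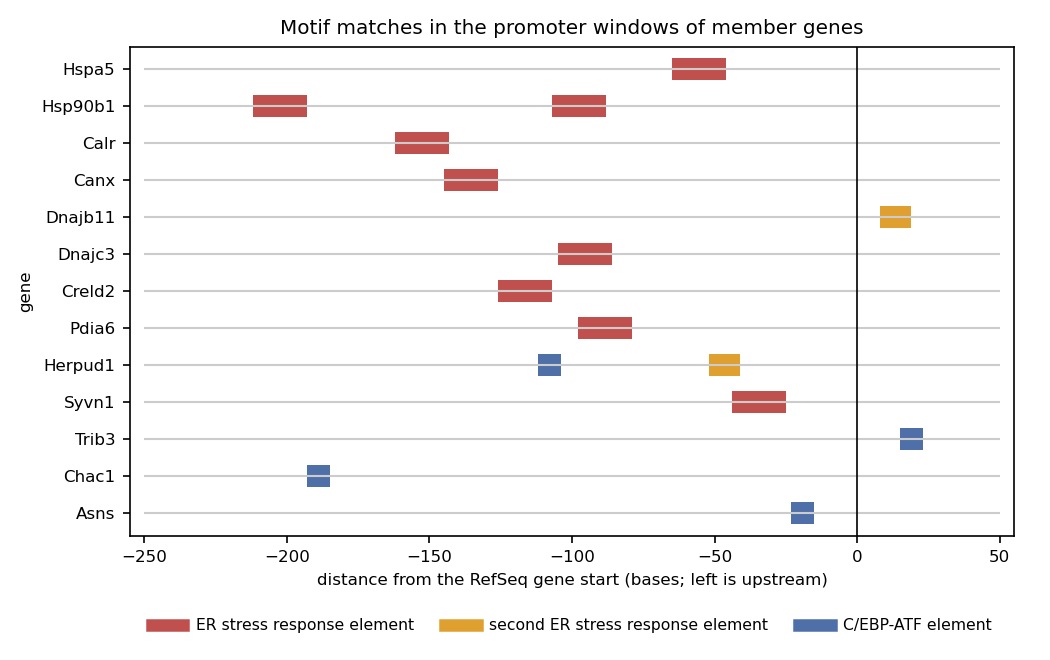
Positions of motif matches in the promoter windows of the 13 genes with a match, as distance from the RefSeq gene start in bases; grey lines span the windows and coloured blocks the matches. The ER stress response element sits upstream in all 8 genes that have it, while the matches in Dnajb11 and Trib3 lie after the start.

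A level here is the log2 of a probe's processed signal after subtraction of the array's 75th percentile, so that 0 is the signal of the 75th percentile and a step of 1 is 2-fold. All 33 genes were above background on all 4 arrays by their brightest probe. No spot was saturated. Some probes were printed 10 times on an array. The median standard deviation between their spots well above background, without outlier flags, was 0.0303 to 0.0406 (log2). The brightest probe of each of the 33 genes had 1 spot per array. The macrophage marker list was above background on every array in 10 of 10 genes, and its median difference between genotypes was -0.09 (3 h) and -0.27 (0 h). St18 was above background in wild-type cells only, which bounds it as lower in LysM-St18flox cells by at least 8.48-fold (3 h) and 7.07-fold (0 h). No label says whether its probe covers the sequence removed from the gene.

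The wild-type 0 h array stood apart from the other 3. Of 12344 genes measured on all arrays, 128 were at least 2-fold below each of the other 3 arrays there, against 26 such genes for the wild-type 3 h array, 44 for LysM-St18flox 0 h and 11 for LysM-St18flox 3 h. A gap of at least 8-fold was seen for 3 genes there and for none on the other arrays, and 2 of these 3 were the ER genes Pdia4 (log2 gap -4.32) and Sdf2l1 (-3.01). The remaining one was Rn28s1, a ribosomal RNA (-4.07). Over 4217 genes with 2 probes above background, the median gap between both probes' differences was 0.402 for the wild-type LPS comparison and 0.351 for the genotype comparison at 0 h, both of which use that array. It was 0.165 for the LysM-St18flox LPS comparison and 0.142 for the genotype comparison at 3 h, which do not. What set that array apart was not tested.

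After 3 h of LPS most of the 33 genes differed little in LysM-St18flox cells, and the genes that differed most belonged to the ATF4 branch and the sensors. At least 2-fold higher were 2 of the 33, Asns and Ppp1r15a, while 8.12% of all measured genes were. At least 2-fold lower were 2 of the 33, Eif2ak3 and Ddit3, while 8.97% of all measured genes were. The median log2 difference of the 33 genes was 0.06, against -0.09 for all measured genes. It was 0.14 for the degradation and translocation genes, 0.10 for the sensors and 0.36 for the ATF4 branch. For the chaperones it was -0.06, with 10 of 15 below 0, beside 7402 of 12975 measured genes. But 3 of 15 were below 0 when each array was centred on its median, which moved the median of all genes to 0.14. With quantile normalization neither Asns nor Ppp1r15a reached 2-fold.

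In wild-type cells 4 of the 33 were at least 2-fold higher after LPS (Pdia4, Sdf2l1, Hyou1 and Asns), while 9.04% of all measured genes were. At least 2-fold lower were again Eif2ak3 and Ddit3, while 11.6% of all measured genes were. The median was 0.42 for the 33 genes and -0.11 for all genes. It was 0.43 for the chaperones, 0.28 for the degradation and translocation genes, -0.08 for the sensors and 0.46 for the ATF4 branch. All these medians use the wild-type 0 h array, and they varied with the processing. For the chaperones the range was 0.08 (stricter filter, 13 genes) to 0.52 (median scaling). For the degradation and translocation genes it was -0.0016 (quantile normalization) to 0.37 (mean of all probes). The counts past 2-fold are near the shares over all genes and say nothing particular about the 33. Above 0 were 19 of the 33 genes in LysM-St18flox cells, beside 5573 of 12975 measured genes, and 24 in wild-type cells, beside 5436 of 12587.

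**Figure D2:**
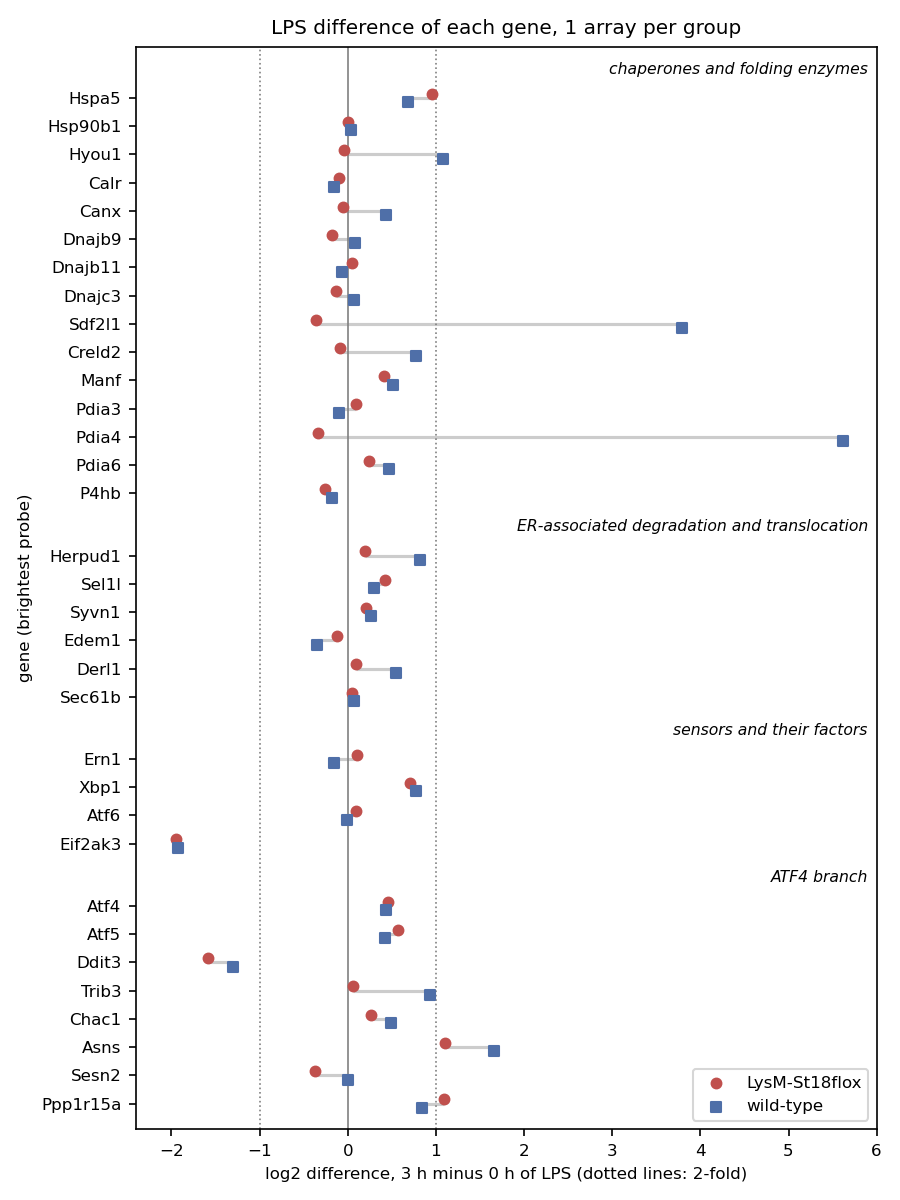
Log2 difference of each gene between 3 h and 0 h of LPS by its brightest probe, in LysM-St18flox cells (red circles) and wild-type cells (blue squares); dotted lines mark 2-fold. The symbols lie close together for Eif2ak3, Ddit3, Xbp1 and Atf4, and far apart for Pdia4 (-0.34 and 5.62) and Sdf2l1 (-0.36 and 3.79).

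Fewer of the 33 genes passed 2-fold between genotypes than between times, and the same held over all measured genes. At 3 h none of the 33 genes was 2-fold or more higher in LysM-St18flox cells and 1, Pdia4, was 2-fold or more lower, against 1.82% and 1.40% of all measured genes. At 0 h 2 were at least 2-fold higher, Pdia4 and Sdf2l1, and none was lower, against 3.04% and 3.03% of all measured genes. The median genotype difference of the 33 genes was -0.14 at 3 h (all genes -0.01) and -0.08 at 0 h (all genes -0.03). The wild-type LPS difference was then subtracted from the LysM-St18flox one. None of the 33 was at least 2-fold above 0, against 2.90% of all measured genes. At least 2-fold below 0 were 3 (Pdia4, Sdf2l1 and Hyou1), against 2.41%. Both this difference and the genotype difference at 0 h use the wild-type 0 h array. Pdia4, at -3.98 there, was close to the lowest level above background, -4.14. Pdia4 and Sdf2l1 have 1 probe each, and the second probe of Hyou1 gave 0.17 for the difference of LPS differences. Counts this small say nothing particular about the 33 genes.

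Cell type markers moved with the genotype. The summed level of the B and plasma cell list, in units of the array's 75th percentile, was 33.26 (3 h) and 36.18 (0 h) in LysM-St18flox cells, against 14.93 and 13.00 in wild-type cells, with 6 of 11 measured genes at least 2-fold higher at either time and the plasma cell gene Tnfrsf17 above background nowhere. The erythroid list summed to 96.60 and 82.71 in LysM-St18flox cells at 3 h and 0 h, against 9.72 and 11.26 in wild-type cells. Neutrophil markers summed to 38.80 and 34.05, against 112.22 and 80.46, with Ngp above background nowhere. At 3 h, 3 of 8 measured neutrophil genes were at least 2-fold lower and 1 was higher, and at 0 h 4 of 9 were lower and none higher. Mesothelial and fibroblast markers summed to 4.53 and 5.86, against 13.19 and 12.30. Mast cell markers (6.87 and 7.06, against 1.93 and 2.18; Ms4a2 above background nowhere) and eosinophil markers (12.45 and 12.50, against 7.25 and 6.32; Prg2 and Epx nowhere) had higher sums in LysM-St18flox cells. T and NK cell markers summed to 8.40 and 7.75, against 4.79 and 5.78, with Cd8a above background nowhere. At 3 h, 3 of 7 measured T and NK cell genes were at least 2-fold higher and none lower, and at 0 h 2 of 5 were higher and 1 lower. The part of these shifts in the genotype values of the ER genes was not tested.

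Among the 15 chaperones, Hspa5 had the highest LPS difference in LysM-St18flox cells, and it was higher after LPS in wild-type cells too. Hspa5 encodes BiP, the Hsp70 chaperone of the ER, which binds the sensors and holds them inactive. Its levels were 6.20 (LysM-St18flox 3 h), 5.25 (LysM-St18flox 0 h), 6.34 (wild-type 3 h) and 5.65 (wild-type 0 h). It was thus 1.93-fold higher after LPS in LysM-St18flox cells and 1.61-fold higher in wild-type cells, short of 2-fold in both. Its second probe gave log2 differences of 0.91 and 0.81, close to the 0.95 and 0.69 of the first.

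The other genes with the same promoter element had LPS differences below that of Hspa5 in LysM-St18flox cells, while in wild-type cells that of Creld2 was above it. Hsp90b1, which encodes GRP94, had 5.63 at both times in LysM-St18flox cells, against 5.99 at 3 h and 5.96 at 0 h in wild-type cells. Calr, the lectin chaperone calreticulin, had 4.83 and 4.92 in LysM-St18flox cells at 3 h and 0 h, against 5.16 and 5.32 in wild-type cells. Canx, its membrane-bound relative calnexin, had 5.47 and 5.53, against 5.75 and 5.32. Hsp90b1 and Calr stood lower in LysM-St18flox cells at both times. Over the 8 genes with the element, LPS differences ran from -0.13 (Dnajc3) to 0.95 (Hspa5) in LysM-St18flox cells and from -0.16 (Calr) to 0.77 (Creld2) in wild-type cells. The element was thus shared by genes near 0 and by the chaperone highest above it in LysM-St18flox cells.

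Creld2 and Manf encode secreted ER stress proteins, and Sdf2l1 a luminal partner of DnaJ co-chaperones. Creld2 had levels of 3.51 (LysM-St18flox 3 h), 3.59 (LysM-St18flox 0 h), 4.33 (wild-type 3 h) and 3.56 (wild-type 0 h). It was high on the wild-type 3 h array alone, with log2 LPS differences of -0.09 in LysM-St18flox cells and 0.77 in wild-type cells. Manf had 2.35 and 1.94 in LysM-St18flox cells at 3 h and 0 h, against 2.46 and 1.94 in wild-type cells. Its log2 LPS differences of 0.41 and 0.52 were alike by the brightest probe, while the second probe gave 0.39 in LysM-St18flox cells and 1.16 in wild-type cells.

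Sdf2l1 and Pdia4 gave the widest values, and both rest on the wild-type 0 h array. Sdf2l1 had levels of 1.84 (LysM-St18flox 3 h), 2.21 (LysM-St18flox 0 h), 2.61 (wild-type 3 h) and -1.17 (wild-type 0 h). Pdia4, a protein disulfide isomerase, had levels of 0.35, 0.68, 1.64 and -3.98 in the same order. Both genes were far lower at wild-type 0 h than on the other 3 arrays, among which Pdia4 still differed by 2.45-fold between genotypes at 3 h. The processed signals behind the low values were 298 for Sdf2l1 and 42.7 for Pdia4. The level of Pdia4 there was close to the lowest level above background on that array, -4.14. The stricter filter on dim probes left Pdia4 out of the wild-type LPS comparison and the genotype comparison at 0 h. Every other array had at least 3163 and 1121, and neither low spot carried an outlier flag. Each gene has 1 probe, printed once, so no second probe can be set beside it. Without the wild-type 0 h array, LPS differences were -0.36 for Sdf2l1 and -0.34 for Pdia4 in LysM-St18flox cells, and genotype differences at 3 h were -0.77 and -1.29.

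Hyou1, the large Hsp70-like chaperone that acts as exchange factor for BiP, had dim probes that did not give the same LPS difference. Its brightest probe had levels of -2.87 (LysM-St18flox 3 h), -2.83 (LysM-St18flox 0 h), -2.09 (wild-type 3 h) and -3.17 (wild-type 0 h), which puts it 2.11-fold higher after LPS in wild-type cells. Its second probe had -3.81, -3.69, -2.33 and -2.04 in the same order, with a wild-type LPS difference of -0.29. Both probes were lower in LysM-St18flox cells at 3 h, by log2 differences of -0.78 and -1.47. At 0 h they differed in direction, at 0.35 and -1.64.

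The remaining disulfide isomerases and DnaJ proteins lay between -0.54 and 0.47 in all 4 comparisons. Pdia6 had 5.92 and 5.68 in LysM-St18flox cells at 3 h and 0 h, against 6.25 and 5.78 in wild-type cells. P4hb, which encodes the founding disulfide isomerase, had 3.71 and 3.97, against 4.20 and 4.39. Pdia3, the isomerase that works with calnexin and calreticulin, had 3.75 and 3.65, against 3.72 and 3.82. P4hb was lower after LPS in both genotypes and Pdia6 higher, although Pdia6 ran from -0.08 to 0.47 in LysM-St18flox cells across the alternative settings. Dnajb9, Dnajb11 and Dnajc3 encode J-domain partners of BiP, and their LPS differences ran from -0.18 to 0.05 in LysM-St18flox cells and from -0.07 to 0.08 in wild-type cells.

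At 3 h the chaperones as a group lay lower in LysM-St18flox cells, a comparison that does not use the wild-type 0 h array. Of the 15, 13 were below 0, beside 6856 of 13048 measured genes, with a median of -0.34 against -0.01 over all genes. The furthest were Pdia4 (-1.29), Creld2 (-0.83), Hyou1 (-0.78), Sdf2l1 (-0.77), Dnajc3 (-0.54) and P4hb (-0.49), and the 2 above 0 were Dnajb9 (0.07) and Pdia3 (0.03). Of the 7 chaperones with a second probe, 6 were below 0 by that probe, for which the median over all genes was -0.06. The degradation and translocation genes had a median of -0.07, the sensors 0.10 and the ATF4 branch -0.03. At 0 h, 9 of the 15 chaperones were below 0, beside 6728 of 12676 measured genes. The chaperone median was -0.10, and 7 were below 0 with quantile normalization. These are counts over genes of 2 arrays, beside the shifts in cell type markers given above.

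**Figure D3:**
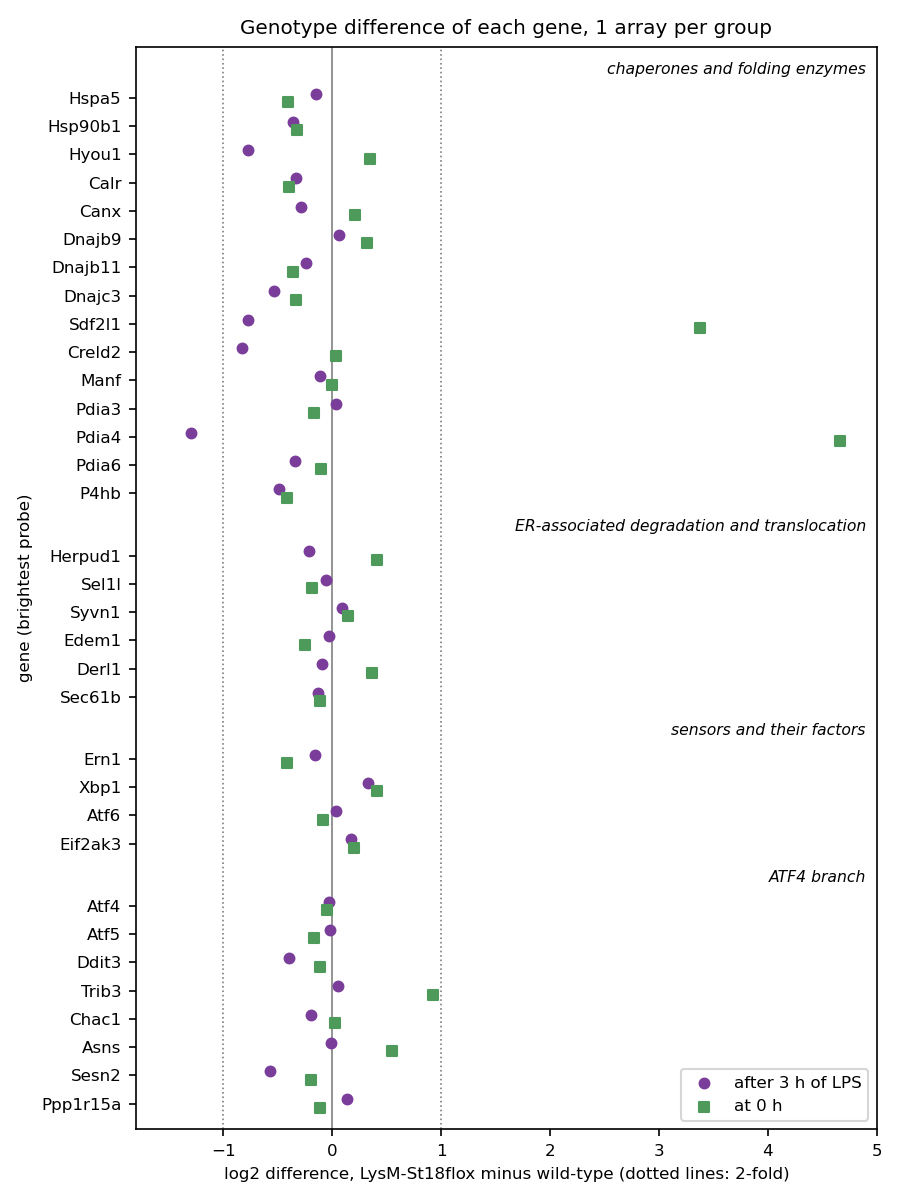
Log2 difference of each gene between LysM-St18flox and wild-type cells by its brightest probe, after 3 h of LPS (purple circles) and at 0 h (green squares); dotted lines mark 2-fold. At 3 h, 13 of the 15 chaperones lie left of 0 with Pdia4 at -1.29, beside 6856 of 13048 measured genes (not drawn). At 0 h Pdia4 (4.66) and Sdf2l1 (3.38) lie far to the right.

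The degradation and translocation genes stayed within 2-fold in every comparison. Herpud1, which organises the degradation complex in the ER membrane, had levels of 2.77 (LysM-St18flox 3 h), 2.58 (LysM-St18flox 0 h), 2.99 (wild-type 3 h) and 2.17 (wild-type 0 h), with log2 LPS differences of 0.19 and 0.82. Its second probe gave 0.16 and 0.41. Sel1l and Syvn1 encode the adaptor and the ubiquitin ligase of the main degradation complex. Sel1l had 4.51 and 4.09 in LysM-St18flox cells at 3 h and 0 h, against 4.57 and 4.27 in wild-type cells. Syvn1 had 4.48 and 4.27, against 4.39 and 4.12. Both stood higher at 3 h in either genotype, by log2 differences of 0.21 to 0.42. Across the alternative settings Sel1l kept that direction, while Syvn1 ran from -0.11 to 0.44 in LysM-St18flox cells and from -0.01 to 0.35 in wild-type cells.

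Derl1, a channel protein for retrotranslocation, had 2.86 and 2.77 in LysM-St18flox cells at 3 h and 0 h, against 2.95 and 2.40 in wild-type cells. Edem1, which extracts misfolded glycoproteins from the folding cycle, had 2.90 and 3.02, against 2.93 and 3.27. Sec61b, a subunit of the translocation channel, had 5.45 and 5.41, against 5.59 and 5.52. Edem1 was the one of the 6 that was lower after LPS in both genotypes (-0.12 and -0.35), with a range of -0.32 to 0.11 across the alternative settings in LysM-St18flox cells. Between genotypes at 3 h the 6 genes ran from -0.22 (Herpud1) to 0.09 (Syvn1).

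Of the sensors, Eif2ak3 was far lower after LPS in both genotypes, and of their factors Xbp1 was higher. Eif2ak3 encodes PERK, the kinase that phosphorylates the initiation factor eIF2α under ER stress. It had levels of -1.50 (LysM-St18flox 3 h), 0.45 (LysM-St18flox 0 h), -1.67 (wild-type 3 h) and 0.25 (wild-type 0 h). The 3 h arrays were low and the 0 h arrays high, so that it was 3.86-fold lower after LPS in LysM-St18flox cells and 3.80-fold lower in wild-type cells. It rests on 1 probe.

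Xbp1 had levels of 5.43 (LysM-St18flox 3 h), 4.72 (LysM-St18flox 0 h), 5.09 (wild-type 3 h) and 4.32 (wild-type 0 h). It was 1.63-fold higher after LPS in LysM-St18flox cells and 1.72-fold higher in wild-type cells, and the second probe gave log2 differences of 0.45 and 0.53. By the brightest probe it was also the sensor group's highest value between genotypes at 3 h, at 0.33. The second probe gave 0.20 and the third, also above background on all 4 arrays, gave 0.07. These probes read total Xbp1 transcript, and its splicing by IRE1 was not measured. Ern1, which encodes IRE1, had 0.14 and 0.04 in LysM-St18flox cells at 3 h and 0 h, against 0.30 and 0.46 in wild-type cells. Atf6 had 1.47 and 1.37, against 1.44 and 1.45. The LPS differences of these sensors ran from -0.15 to 0.10, with neither genotype far from 0.

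In the ATF4 branch, Asns and Ppp1r15a had the highest LPS differences in LysM-St18flox cells, and Ddit3 the lowest in both genotypes. Asns, which encodes asparagine synthetase, had levels of 2.85 (LysM-St18flox 3 h), 1.75 (LysM-St18flox 0 h), 2.86 (wild-type 3 h) and 1.20 (wild-type 0 h). It was 2.14-fold higher after LPS in LysM-St18flox cells and 3.16-fold higher in wild-type cells, and its second probe gave log2 differences of 0.77 and 1.06 against 1.101 and 1.66. Ppp1r15a encodes GADD34, the phosphatase subunit that reverses eIF2α phosphorylation. It had 3.35 and 2.26 in LysM-St18flox cells at 3 h and 0 h, against 3.22 and 2.38 in wild-type cells. That is 2.13-fold higher in LysM-St18flox cells and 1.80-fold higher in wild-type cells after LPS, with both 3 h arrays above both 0 h arrays.

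Ddit3 encodes CHOP, a transcription factor of stress-induced cell death. It had levels of -1.06 (LysM-St18flox 3 h), 0.53 (LysM-St18flox 0 h), -0.66 (wild-type 3 h) and 0.64 (wild-type 0 h). Both 3 h arrays lay below both 0 h arrays, by 3.00-fold in LysM-St18flox cells and 2.46-fold in wild-type cells. Atf4 itself had 7.31 and 6.86 in LysM-St18flox cells at 3 h and 0 h, against 7.34 and 6.90 in wild-type cells. Its log2 LPS differences were 0.45 and 0.44, with 0.42 and 0.79 by the second probe. Atf5, a relative of Atf4 that is translated in the same way, had differences of 0.57 and 0.42. The direction of Ddit3 was therefore opposite to that of Atf4 and Atf5 on the same arrays.

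Trib3, Chac1 and Sesn2 had small or unequal LPS differences. Trib3, a pseudokinase that restrains ATF4, had 2.27 and 2.21 in LysM-St18flox cells at 3 h and 0 h, against 2.22 and 1.28 in wild-type cells. The wild-type 0 h array alone was low, and the other 3 lay close together. Chac1, which breaks down glutathione, had 1.92 and 1.66, against 2.11 and 1.63. Sesn2, a stress-induced regulator of mTORC1, had 0.96 and 1.34, against 1.54 and 1.53. The genes with the C/EBP-ATF element had LPS differences of 1.101 (Asns), 0.27 (Chac1), 0.19 (Herpud1) and 0.06 (Trib3) in LysM-St18flox cells, against 1.66, 0.49, 0.82 and 0.94 in wild-type cells.

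Second probes bear on 15 of the genes. In the LysM-St18flox LPS comparison the median gap between both probes was 0.063 and the largest was 0.326 (Asns), with the same direction in 11 of 15. In the genotype comparison at 3 h it was 0.105, with the same direction in 14 of 15 and the largest gap, 0.698, for Hyou1. In the comparisons with the wild-type 0 h array the gaps were wider, at 0.297 with 11 of 15 for the LPS difference and 0.210 with 8 of 15 for the genotype difference.

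**Figure D4:**
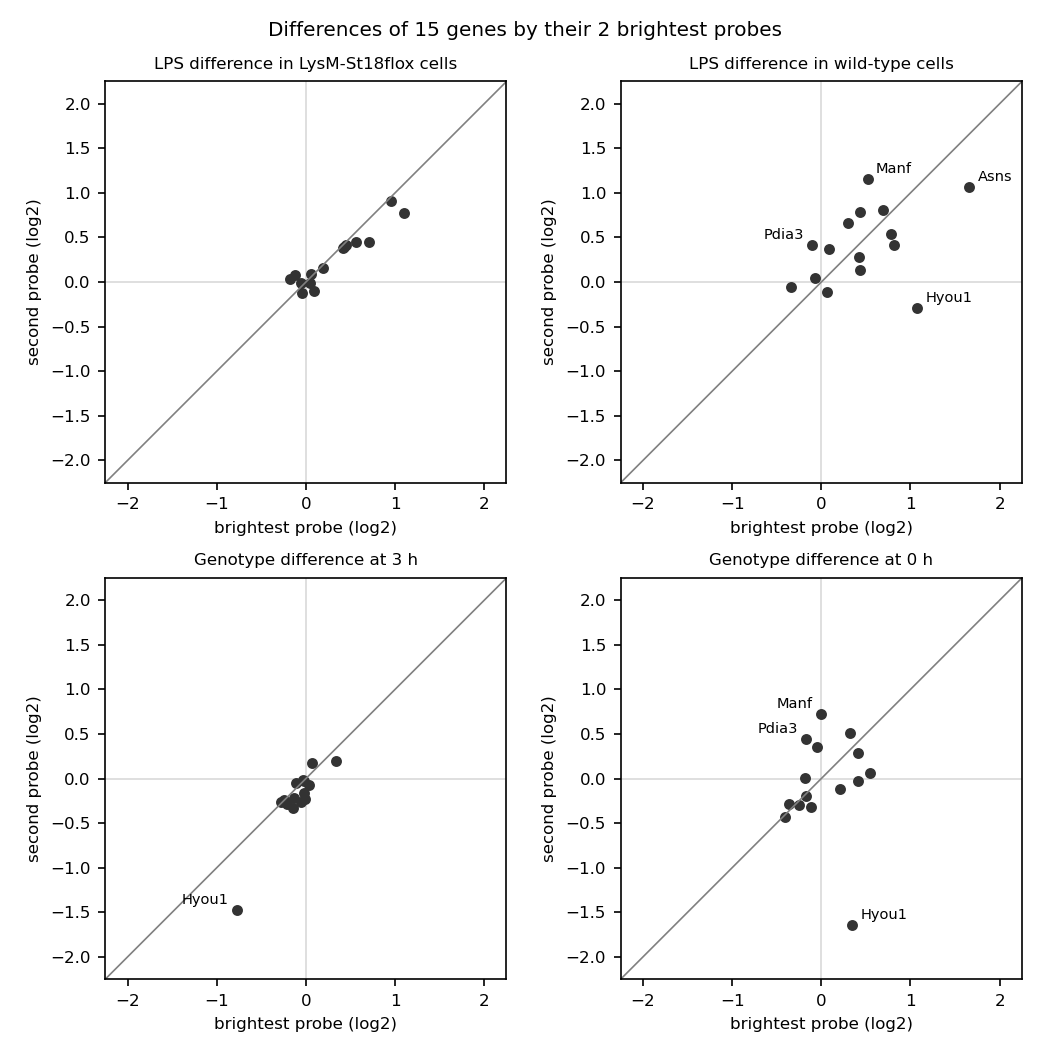
Log2 difference of the 15 genes with 2 probes above background, by the brightest probe (horizontal axis) and the second probe (vertical axis), in 4 comparisons; the diagonal is equality, and genes with a gap above 0.5 are named. Points lie close to the diagonal in the left panels, which do not use the wild-type 0 h array, and scatter in the right panels, which do.

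Further genes of the same pathways were described from lists that do not hold the 33. Of 40 further genes of ER folding, export and degradation, 39 were measured by the brightest probe in the LysM-St18flox LPS comparison. None was at least 2-fold higher there, Wfs1 was lower (-1.58) and the median was 0.06. Over all measured genes 8.12% were higher and 8.97% lower there, and 9.04% and 11.6% in wild-type cells. In wild-type cells Tmed2, a cargo receptor of ER export vesicles, was at least 2-fold higher (1.19) and Wfs1, which encodes the ER membrane protein wolframin, lower (-1.45), of 38 measured, with a median of 0.15. Wfs1 had levels of 2.93 and 4.51 in LysM-St18flox cells at 3 h and 0 h, against 2.61 and 4.06 in wild-type cells. No gene of this list was 2-fold apart between genotypes at either time among 38 measured by the brightest probe. Of all measured genes, 1.82% were higher and 1.40% lower at 3 h, and 3.04% and 3.03% at 0 h. The medians of the list were -0.10 at 3 h and -0.02 at 0 h. Second probes did not always give the same. That of Ssr1 gave 1.56 between genotypes at 0 h and 1.87 for wild-type LPS, against -0.09 and 0.23 by the first. That of Dnajc10 gave -1.004 for LysM-St18flox LPS, against 0.07, and that of Tmed2 gave 0.96 for wild-type LPS. Derl3, a relative of Derl1, was above background in LysM-St18flox cells only, at least 1.24-fold higher at 3 h and at least 1.22-fold higher at 0 h.

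Of 35 further ATF4 targets and amino acid stress genes, 30 were measured in the LysM-St18flox LPS comparison, with 5 at least 2-fold higher, 2 lower and a median of 0.06. In wild-type cells it was 6 higher and 3 lower of 29, with a median of 0.22, beside 9.04%, 11.6% and -0.11 over all genes. Higher in both genotypes was Slc7a11, the cystine transporter gene (3.16 in LysM-St18flox cells and 5.03 in wild-type cells). So were Nupr1, a stress-induced chromatin regulator (3.01 and 2.68), and Eif2ak2, which encodes the antiviral kinase PKR (3.33 and 2.65). Ppp1r15b, the constitutive counterpart of Ppp1r15a, was higher in both too (1.79 and 1.86). Mthfd2, of mitochondrial folate metabolism, was past 2-fold in LysM-St18flox cells (1.07, against 0.70 in wild-type cells) by its brightest probe. Its second probe was past 2-fold in both (1.22 and 1.08). Cars, a tRNA synthetase gene (0.34 and 1.09), and Cebpb, a C/EBP factor gene (0.89 and 1.03), were past 2-fold in wild-type cells by the brightest probe. The second probe of Cars gave 0.12 and 0.61, short of 2-fold in both genotypes. That of Wars, another tRNA synthetase gene, gave 0.19 and 1.17, against 0.39 and 0.61 by its first. Eif2ak2 is an interferon target as well, and sits in the list as a kinase of eIF2α.

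Lower after LPS in both genotypes was Pck2, the mitochondrial PEP carboxykinase gene (-1.18 in LysM-St18flox cells and -1.29 in wild-type cells). Its second probe gave -1.02 and -0.73, the latter short of 2-fold. Cebpg, which encodes a partner of ATF4, was at -0.90 and -1.09, and at -1.04 and -1.49 by its second probe. Vldlr was lower in LysM-St18flox cells (-1.38) and, as a bound, higher by at least 1.51-fold in wild-type cells, where it was not above background at 0 h. At 0 h its bound was at least 2.81-fold higher in LysM-St18flox than in wild-type cells. Aldh1l2, of mitochondrial folate metabolism, was lower in wild-type cells (-1.29) and, as a bound, lower in LysM-St18flox cells by at least 2.203-fold. Between genotypes at 3 h no gene of the list was 2-fold apart among 30, beside 1.82% higher and 1.40% lower of all measured genes. At 0 h Slc7a11 was higher (1.22) and Aldh1l2 lower (-1.03) in LysM-St18flox cells among 29, beside 3.04% and 3.03%. The second probe of Slc3a2 was past 2-fold lower at 0 h too (-1.01, against -0.81 by the first). For the difference of both LPS responses, Slc7a11 (-1.87) and Ddit4 (-1.38) lay below -1 in this list and Tmed2 (-1.12) in the other, by the brightest probe. By second probes Tmed2 was at -0.99, while Eif2ak1 of this list (-1.005) and Ssr1 of the other (-2.04) lay below -1.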

How the data were processed

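The deposited spot intensity values of 1-colour arrays come from Agilent Feature Extraction 11.0.1.1, as file headers and submitters' processing notes state. Per the file headers, each is a processed intensity after background subtraction and detrending, with flags for spots above background, saturated or outlying. The deposited log2 value table holds 25482 probes. Its 4 columns have the same median (9.58) and the same sorted values within 0.0004, and the lowest correlation of a column with its array was 0.9999, the highest with another array 0.991. Its normalization and centring are not given in the sources used here, and it served as an alternative.

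From the deposited intensities, log2 values minus each array's 75th percentile over non-control spots were taken, without spots carrying an outlier flag. Spots of a probe were averaged. The probe brightest over the 4 arrays stood for its gene, which was measured where that probe was well above background on every array compared. Names came from matching accessions, without versions, to the RefSeq table of GRCm38.p6, which named 32994 of 56605 probes. The headers name another build, so coordinates are given only for promoters of that table. Each role group is described by its counts at 2-fold and its median beside those of all measured genes. A gene above background on 1 side was given as a bound, from the bright level against either the dim level or, if higher, the lowest level above background on the dim array. The difference calculation was tested on simulated data.

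All 33 genes were to be named, with further pathway genes at least 2-fold apart, the summed marker lists, St18 and Rn28s1. The genes and lists were chosen with earlier results of these data known. Alternatives were normexp background correction with offset 50 (limma 3.58.1, R 4.3.3), median scaling, quantile normalization, no filter and a stricter filter on dim probes, outlier spots kept, the second probe, the mean of all probes, the deposited table and a 1.5-fold threshold. All arrays lay on 1 slide. Their 75th percentile signal was 882 (LysM-St18flox 3 h), 1067 (LysM-St18flox 0 h), 755 (wild-type 3 h) and 672 (wild-type 0 h), and 52.2% to 55.6% of spots were well above background. The number of arrays limits the precision. Protein sequences were not used here.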

Additional observations from a re-analysis of the deposited data

Results flagged for a closer look

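Sdf2l1 and Pdia4 had LPS differences of opposite direction in the 2 genotypes. The log2 LPS difference of Sdf2l1 was -0.36 in LysM-St18flox cells and 3.79 in wild-type cells. That of Pdia4 was -0.34 in LysM-St18flox cells and 5.62 in wild-type cells. Each value is beyond 0.107, which is 2 times the spot standard deviation for a difference of 2 arrays, but that covers spot noise alone. That deviation comes from probes printed 10 times, while the probes of these 2 genes had 1 spot per array. The spread of a single probe in the LysM-St18flox LPS comparison was 0.344, about the size of both LysM-St18flox values, and across the alternative settings these came as near to 0 as -0.13 for Sdf2l1 and -0.11 for Pdia4. With 1 array per group the difference between genotypes was not tested. Both wild-type values use the wild-type 0 h array, on which these genes were below every other array by log2 gaps of -3.01 and -4.32. Pdia4 had a level of -3.98 there, close to the lowest level above background on that array, -4.14.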

How the results depend on the processing

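No paired analysis was possible because each group has 1 array, and for the same reason no replicate could be left out. The wild-type LPS difference, the genotype difference at 0 h and the difference of both LPS differences have no value without the wild-type 0 h array. Over all alternatives, 178 group medians kept within the spread of a single probe and 2 moved, 82 counts of the 33 genes kept within 1.5 times and 18 moved, and of the single genes 119 values kept, 6 moved and 2 reversed. That spread was 0.529 for wild-type LPS, larger than each group median there, so a median could reach 0 and still count as kept. The degradation and translocation median did so, from 0.28 to -0.0016 with quantile normalization. Without a filter and with outlier spots kept, the wild-type LPS medians did not change at all. Many of these counts are below 5, where a change of 1 gene is enough. With the second probe, which 15 genes have, the counts at least 2-fold higher and lower were 0 and 0 for LPS in LysM-St18flox cells (2 and 2 by the brightest probe), 2 and 0 for LPS in wild-type cells (4 and 2), 0 and 1 between genotypes at 0 h (2 and 0), and 0 were lower for the difference of LPS differences (3). The sensor median, then Xbp1 alone, was 0.45 in LysM-St18flox cells and 0.53 in wild-type cells. Hyou1 turned to -0.29 for the wild-type LPS difference and to 0.17 for the difference of LPS differences, with 0.39 and -0.48 as the mean of its probes. With the stricter filter, the count was 2 higher and 1 lower for LPS in wild-type cells and 1 higher at 0 h. LPS in LysM-St18flox cells gave 0 genes at least 2-fold higher with quantile normalization and with the deposited table, and 1 with the mean of probes. That mean gave 2 genes lower in LysM-St18flox cells at 3 h, against 1. At 1.5-fold the counts were 4 higher for LPS in LysM-St18flox cells, 10 higher in wild-type cells, 4 lower between genotypes at 3 h and 6 lower for the difference of LPS differences. Normexp brought Pdia4 to 4.15 for wild-type LPS, 3.24 at 0 h and -4.47 for the difference of LPS differences. Median scaling changed the split of all genes at least 2-fold higher and lower to 10.6% and 5.72% for LPS in LysM-St18flox cells (8.12% and 8.97% by the 75th percentile), 2.33% and 5.22% between genotypes at 0 h (3.04% and 3.03%) and 4.34% and 1.73% for the difference of LPS differences (2.90% and 2.41%). It moved the median of all genes to 0.14, -0.17 and 0.17 in these comparisons. Causes were not tested beyond the smaller number of genes with a second probe or past the stricter filter.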

Other observations

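The genes that were lowest on the wild-type 0 h array relative to the other 3 were looked up after their values were seen. Of the 16 that were at least 4-fold below every other array, Pdia4 and Sdf2l1 were the ER genes, and the cytosolic heat shock genes Hspa1a (log2 gap -2.41) and Hspa1b (-2.37) were among the rest. The largest gaps after Pdia4, Rn28s1 and Sdf2l1 were those of Zbtb32 (-2.80), Dync1li1 (-2.65) and Ywhaz (-2.50). For Ywhaz and Zhx1 (-2.02) a second probe gave gaps of -0.17 and -0.06, so the low value was seen by 1 of their probes. The other 14 have no second probe above background on all arrays. The corresponding number of genes at least 4-fold below every other array was 1 for LysM-St18flox 3 h, 3 for LysM-St18flox 0 h and 3 for wild-type 3 h.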
